A study of Mus musculus with 2 samples.

Results

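Cadherins and desmosome components hold neighbouring epithelial cells together, and 10 of their genes were followed here in sorted mouse liver mesothelial cells: Cdh1, Cdh2, Cdh3, Cdh11, Dsc2, Dsg2, Dsp, Jup, Pkp2 and Ctnnb1. They were chosen by name, as 10 of the 18193 genes that the array platform's annotation pairs with a probe set of their own, and all 26 probe sets annotated to them were used. The mesothelium is the sheet of epithelial-like cells on the surface of the liver. The adult cells came from livers of 8-week-old C57BL/6 mice and were sorted with an antibody to Mesothelin. The embryonic cells came from C57BL/6 livers at embryonic day 12.5 (E12.5) and were sorted with an antibody to PCLP1, the product of Podxl. The labels name no mutant allele and no treatment other than collagenase digestion and sorting, and they do not say how many animals were pooled. Each group was 1 Affymetrix array, so no spread between replicates was available and no test was run. The effects of stage, of the antibody used for sorting and of the array itself cannot be told apart.

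Classical cadherins are transmembrane proteins that bind their own kind on the neighbouring cell and, through beta-catenin (Ctnnb1) and alpha-catenin, the actin cytoskeleton. In the desmosome, desmogleins (Dsg) and desmocollins (Dsc) are the transmembrane cadherins, plakoglobin (Jup) and plakophilins (Pkp) bind their tails, and desmoplakin (Dsp) ties the plaque to keratin or other intermediate filaments. Mesothelial cells are known for joining epithelial junctions and keratins to mesenchymal traits such as vimentin, and Cdh2 and Cdh11 are known from mesenchymal cells as well as from mesothelium.

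Signals are brightness values of a probe set in arbitrary units. The adult signals were divided by 0.680, the ratio of the array medians (29.9 in adult and 44.0 at E12.5), which is the scaling in the authors' own ratio, and differences are log2 adult minus log2 E12.5 signals. A probe set counted as detected on an array where the authors' call was present. Where it was present on 1 array alone the fold is a lower bound by rule. It was taken against the higher of the dim signal itself and the lowest present signal of that array (5.84 in adult and 4.57 at E12.5). That floor is not a detection limit, since absent calls also occurred at higher signals, such as 105 in adult for a Cdh3 probe set. A difference was called at 2-fold. Of the 45037 probe sets other than controls, 52.2% were present in adult and 51.9% at E12.5. All 10 genes were present at E12.5 and 7 of them in adult. Probe sets differ in their response, so a signal compares the arrays and not the genes. Brightness served to choose a gene's probe set, and a sum over a marker list adds probe sets of unequal response.

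Among these genes the largest differences lay at the desmosome and at N-cadherin, and they lay towards E12.5. Dsc2, Cdh2 and Dsp were at least 96.1-fold, at least 53.6-fold and 9.43-fold lower in adult than at E12.5. The bounds of Dsc2 and Cdh2, -6.59 and -5.75 on the log2 scale, rest on the floor used. With a pseudocount of 16 they were smaller, -4.72 and -3.91. The plakophilin gene Pkp2 was 2.26-fold higher in adult, while Cdh1, Cdh11, Dsg2, Jup and Ctnnb1 lay within 2-fold. In all, 1 of the 10 genes passed 2-fold towards adult and 4 towards E12.5. Over the 12801 genes detected on at least 1 array these shares were 16.9% and 29.1%, so the members' share towards adult lay near that of all genes, and 4 of 10 against 29.1% is a small difference in so few genes. Cdh2, Cdh3 and Dsc2 were detected at E12.5 alone, and their direction follows from that filter. That is 3 of the 10 genes at E12.5 alone and none in adult alone, beside 10.8% (1388) and 9.84% (1259) of the 12801 genes. Of the other 7, 1 passed 2-fold towards adult and 1 towards E12.5, beside 13.2% and 27.1% of the 10154 genes detected on both arrays.

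**Figure D1:**
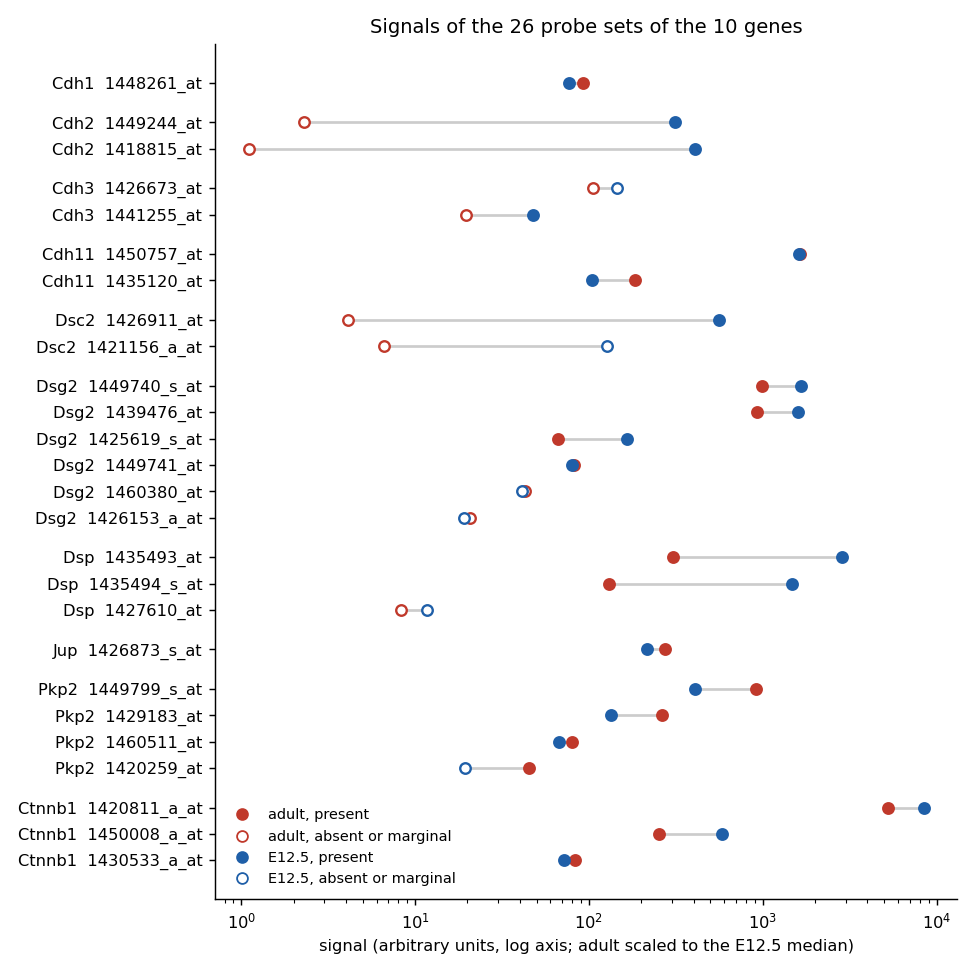
Signal of each of the 26 probe sets (rows, grouped by gene) on the adult array (red) and the E12.5 array (blue), on a log axis in arbitrary units with adult signals scaled to the E12.5 median. Filled circles are present calls and open circles absent or marginal ones. The adult circles of Cdh2 and Dsc2 are open and lie below 7, those of Dsp lie left of the E12.5 circles, and those of Pkp2 lie right of them.

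Desmoplakin showed the largest difference among the 7 of the 10 genes present on both arrays. Its brightest probe set had a signal of 304 in adult and 2870 at E12.5, a log2 difference of -3.24. The second had 131 in adult and 1466 at E12.5, a log2 difference of -3.49. Both reported the same direction and nearly the same size, and 1.70% of the 10154 genes detected on both arrays had a lower (more negative) difference than the first. A further probe set was absent on both arrays, with 8.31 in adult and 11.6 at E12.5.

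Of the desmosomal cadherins, desmocollin 2 differed much more than desmoglein 2. Dsc2 had 4.11 with an absent call in adult and 561 with a present call at E12.5. The other Dsc2 probe set had 6.59 in adult, also absent, and 127 with a marginal call at E12.5. Neither probe set gave a usable adult level, so how low Dsc2 was in adult is not known. Dsg2, the desmoglein of simple epithelia, was present on both arrays. Its brightest probe set had 995 in adult and 1658 at E12.5, a log2 difference of -0.74, and the next had 931 in adult and 1595 at E12.5 (-0.78). Among the dimmer ones, 1 had 66.0 in adult and 166 at E12.5 (-1.33) and another had 81.9 in adult and 79.8 at E12.5 (0.04). The 4 detected probe sets thus spread from about equal signals to a difference past 2-fold towards E12.5, with both bright ones within 2-fold. The other 2 of its 6 probe sets were present on neither array.

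Neither of the other plaque genes among the 10 passed 2-fold towards E12.5 as Dsp did. Pkp2, whose product links the desmosomal cadherin tails to desmoplakin, had 917 in adult and 405 at E12.5 on its brightest probe set, a log2 difference of 1.18. The second had 262 in adult and 135 at E12.5 (0.96), just within 2-fold, and the third had 79.4 in adult and 66.9 at E12.5 (0.25). The dimmest had 45.2 with a present call in adult and 19.3 with an absent call at E12.5, at least 2.35-fold. All 4 were brighter in adult, 2 of them by at least 2-fold. The gene passed 2-fold with the brightest probe set but not with its detected probe sets averaged (0.90), with the _s_at probe sets, which may match more than 1 gene, left out (0.96) or with no scaling (0.62). Jup, plakoglobin, which serves both desmosomes and adherens junctions, had a single probe set with 274 in adult and 217 at E12.5, 0.34 on the log2 scale. Without scaling this difference was -0.22, so Jup has no direction here that is independent of the scaling.

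The classical cadherins divided. N-cadherin (Cdh2) had 2.30 in adult, absent, and 313 at E12.5, present, on its representing probe set. Its other probe set had 1.10 in adult, absent, and 407 at E12.5, present, at least 69.6-fold. The probe sets therefore agreed on a clear signal at E12.5 and none called present in adult. P-cadherin (Cdh3), is best known from basal layers of epithelia. Its detected probe set had 19.7 in adult, absent, and 47.6 at E12.5, present, at least 2.42-fold, while its brighter probe set was absent on both arrays, with 105 in adult and 146 at E12.5. The Cdh3 call did not hold with the genes detected on both arrays centred on 0 (-0.90), with trimmed means made equal (-0.96), with a pseudocount of 16 (-0.83) or without the detection filter (-0.48).

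E-cadherin (Cdh1), the cadherin of most simple epithelia, was present on both arrays, with 92.4 in adult and 76.8 at E12.5 on its single probe set. The log2 difference of 0.27 was -0.29 without scaling. Cdh11, a cadherin first described in osteoblasts and mesenchyme, was almost equal on its main probe set, with 1644 in adult and 1622 at E12.5 (0.02). Its second probe set had 183 in adult and 104 at E12.5 (0.82), and the sign of the first was negative without scaling (-0.54). Beta-catenin, the cadherin tail's partner and the effector of Wnt signalling, was present on both arrays. Its main probe set had 5255 in adult and 8430 at E12.5, a log2 difference of -0.68. Another had 255 in adult and 579 at E12.5 (-1.19) and the dimmest had 83.0 in adult and 71.9 at E12.5 (0.21), so that the probe sets of Ctnnb1 differed in direction.

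**Figure D2:**
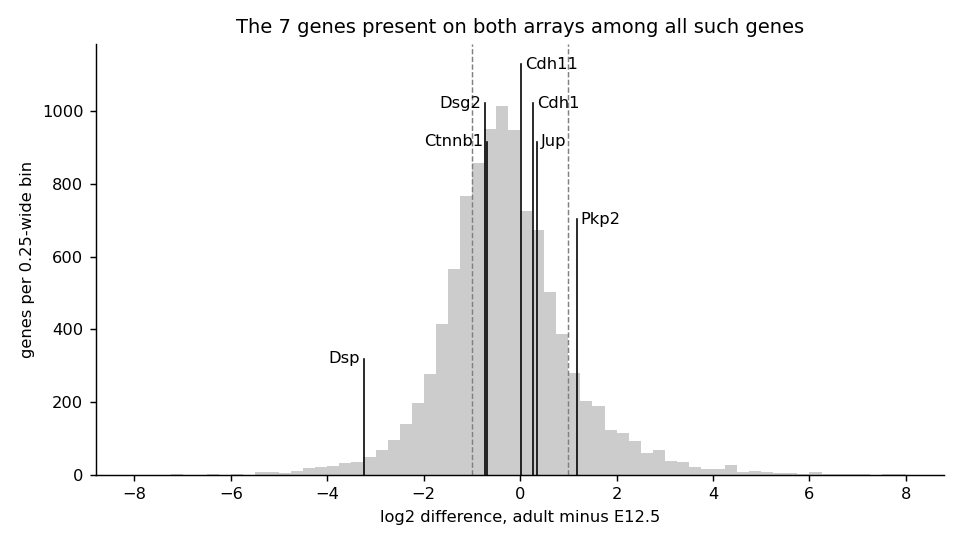
Histogram of the log2 difference, adult minus E12.5, of the 10154 genes present on both arrays (vertical axis, genes per bin), with lines at the 7 of the 10 genes among them and dashed lines at 2-fold. Dsp lies in the left tail at -3.24, Pkp2 at 1.18, and the other 5 lie between -0.74 and 0.34.

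The histogram of all genes places the members against the median of genes present on both arrays, which was -0.37. Pkp2 exceeded 88.8% of those genes, Jup 73.8%, Cdh1 71.9% and Cdh11 64.7%, while Dsg2 and Ctnnb1 exceeded 36.0% and 37.8%. The SD between probe sets of the same gene, pooled over 4279 genes, was 0.62 on the log2 scale. That SD covers disagreement between probe sets on the same 2 arrays and not the error between arrays or animals. The difference of Dsp (-3.24) was several times that SD, and those of Cdh1, Cdh11 and Jup were smaller than it. Counted by probe set, 2 of the 21 detected probe sets of these genes passed 2-fold towards adult and 8 towards E12.5, against 18.7% and 26.5% of all 26894 detected probe sets.

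**Figure D3:**
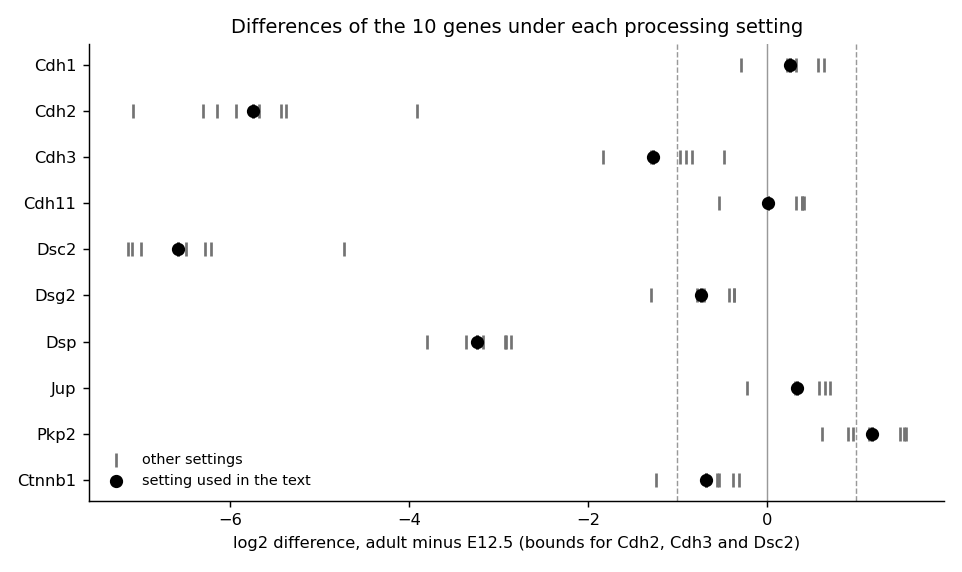
Log2 difference, adult minus E12.5, of each of the 10 genes (rows) in the setting used in the text (black circles) and in the other processing settings (grey ticks), with dashed lines at 2-fold. Values of Cdh2, Cdh3 and Dsc2 are bounds except where no detection filter was used. Dsp stays between -3.79 and -2.86 and Dsc2 and Cdh2 lie left of -3.9 in every setting, whereas Cdh1, Cdh11 and Jup lie on both sides of 0.

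Processing moved the sizes of the main differences, while Dsp kept its direction, as the plot of the settings shows. For Dsc2 and Cdh2 the detection filter fixes the direction. Only the setting without that filter could have reversed them, and it gave -7.09 for each. Dsp ranged from -3.79 to -2.86, Dsc2 from -7.14 to -4.72 and Cdh2 from -7.09 to -3.91. Dsg2 ranged from -1.29 to -0.36 and Ctnnb1 from -1.24 to -0.31, both past 2-fold towards E12.5 with no scaling. The split of all genes depended on scaling: with genes detected on both arrays centred on 0, 22.9% passed 2-fold towards adult and 19.4% towards E12.5. With no scaling these shares were 11.5% and 46.5%, and after quantile normalization 20.0% and 23.2%. With trimmed means made equal they were 21.7% and 20.8%.

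Position in the genome was not used to choose these genes. In the RefSeq annotation of GRCm38.p6, Cdh2, Dsc2 and Dsg2 lie in a single run of cadherin genes, where Cdh2 is followed by Dsc3, Dsc2, Dsc1, the Dsg1 genes, Dsg4, Dsg3 and Dsg2. Along this run Cdh2 and Dsc2 were present at E12.5 alone. Dsc3 (8.39 in adult and 19.6 at E12.5) and Dsc1 (7.07 in adult and 17.5 at E12.5) were also present at E12.5 alone, at signals near background. Dsg1a and Dsg1b were absent on both arrays, and Dsg2 was present on both. Dsg3 and Dsg4 had no probe set of their own and Dsg1c was not among the listed genes, so the run is not covered in full. The coding gene after Dsg2 is the hepatocyte gene Ttr, with 697 in adult and 7063 at E12.5. Cdh3 and Cdh1 are direct neighbours on chromosome 8.

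Promoter sequence is shown for Dsp and Jup, 2 plaque genes of which Dsp differed and Jup did not pass 2-fold. It runs from 250 bases before to 50 bases from the start site, per the RefSeq table for GRCm38.p6, which held 3 of the 10 genes. Both strands were searched for CAGGTG, whose reverse complement is CACCTG. This E-box is bound by Snail and Zeb factors, which are known to repress Cdh1. Any match is in capitals, and it lies within the wider E-box pattern CANNTG.
Dsp, chr13:38151044-38151343, plus strand: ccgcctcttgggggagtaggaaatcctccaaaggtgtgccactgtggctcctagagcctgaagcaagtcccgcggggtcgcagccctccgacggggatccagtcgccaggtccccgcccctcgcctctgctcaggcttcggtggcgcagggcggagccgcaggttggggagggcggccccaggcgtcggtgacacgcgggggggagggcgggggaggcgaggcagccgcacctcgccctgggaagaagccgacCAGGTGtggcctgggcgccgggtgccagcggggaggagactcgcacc
Jup, chr11:100397741-100398040, minus strand: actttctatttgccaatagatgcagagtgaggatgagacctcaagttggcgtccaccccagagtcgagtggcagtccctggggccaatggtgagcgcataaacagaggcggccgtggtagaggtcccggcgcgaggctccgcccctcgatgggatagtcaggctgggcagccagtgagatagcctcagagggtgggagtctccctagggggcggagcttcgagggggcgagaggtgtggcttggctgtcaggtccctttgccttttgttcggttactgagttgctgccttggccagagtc
The Dsp window held 1 match, which begins 3 bases after the start site base, and the Jup window held none. The windows of Ctnnb1, the third gene there, are not shown and held none as well. A link between matches and differences was not tested. Of 32851 promoter windows of this length in the table, 20.2% held CAGGTG or CACCTG and 72.3% held CANNTG. The match describes letters in a window and says nothing of binding.

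Repressors of cadherin genes were all present on both arrays (7 of 7). None passed 2-fold towards adult, 2 did so towards E12.5 and 5 lay within it, with a median log2 difference of -0.20 beside -0.34 for all detected genes. Of all genes detected on both arrays, 13.2% passed towards adult and 27.1% towards E12.5. Snai2, the Snail family factor Slug, had 74.5 in adult and 967 at E12.5, 13.0-fold higher at E12.5. Tcf3, which encodes E-box-binding E2A proteins, had 222 in adult and 1097 at E12.5, 4.93-fold higher at E12.5. Zeb2 had 615 in adult and 355 at E12.5, and Twist1 97.8 in adult and 158 at E12.5, both within 2-fold. With detected genes centred on 0, Zeb2 passed 2-fold towards adult (1.17), and with no scaling Twist1 passed towards E12.5 (-1.25). Cdh1, which these factors are known to repress, had 92.4 in adult and 76.8 at E12.5.

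The remaining desmosome genes, with 7 of 12 listed detected, differed in both directions. Of the 7, 3 passed 2-fold towards adult, 2 towards E12.5 and 2 lay within it (median -0.29). Over all detected genes these shares were 16.9% and 29.1%, so the 2 towards E12.5 lay near the background. The 3 in adult were periplakin, envoplakin and Perp, and the 2 at E12.5 were Dsc1 and Dsc3. Ppl (periplakin), a plakin related to desmoplakin, had 1058 in adult and 56.2 with an absent call at E12.5, at least 18.8-fold. Evpl (envoplakin), its partner in the cornified envelope of skin, had 621 in adult and 184 at E12.5, 3.38-fold higher in adult. Perp, a tetraspan protein of desmosomes, had 577 in adult and 126 at E12.5, 4.57-fold higher in adult. Thus Dsp lay towards E12.5 and both other plakins on the list towards adult. Dsc1 was at least 2.48-fold lower in adult, but neither Dsc1 nor Dsc3 passed 2-fold with detected genes centred on 0 (-0.94 and -0.85).

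Among 18 other cadherin genes 8 were detected, 1 past 2-fold towards adult, 4 towards E12.5 and 3 within it (median -1.03). The shares of all detected genes were 16.9% and 29.1%. Of the 8, 6 were present on 1 array alone, so these counts follow in part from the detection filter. Cdh13, the GPI-anchored T-cadherin, had 121 in adult and 44.4, not present, at E12.5. Cdh15, M-cadherin of muscle, had 7.60, absent, in adult and 85.9 at E12.5. Cdh10 had 16.7, absent, in adult and 116 at E12.5, and Cdh22 had 39.9, absent, in adult and 92.4 at E12.5. Cdh6 had 32.2, absent, in adult and 70.2 at E12.5, and was named after its value was seen. The count towards E12.5 was 2 with detected genes centred on 0, where Cdh22 (-0.84) and Cdh6 (-0.75) lay within 2-fold, and it was also 2 with trimmed means made equal or a pseudocount of 16. The call of Cdh13 was lost with no scaling (0.89).

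Of the catenins and other adherens junction partners 13 of 15 were detected, 1 past 2-fold towards adult, 3 towards E12.5 and 9 within it (median -0.47). As shares both lay below those of all detected genes (16.9% and 29.1%). With no scaling 7 of the 13 passed 2-fold towards E12.5, Ajuba (-1.17), Ctnnd1 (-1.09), Ctnnd2 (-1.03) and Vcl (-1.51) among them, and with detected genes centred on 0 only Ctnna2 did. The actin-binding protein Lima1 had 1011 in adult and 439 at E12.5, 2.30-fold higher in adult. The nectins, immunoglobulin-like adhesion proteins of the same junction, went the other way: Nectin3 had 381 in adult and 840 at E12.5, and Nectin2 had 745 in adult and 1570 at E12.5. With detected genes centred on 0 both nectins lay within 2-fold (-0.77 and -0.70), and with no scaling Lima1 did (0.65). Ctnna2, the neuronal alpha-catenin, had 16.9, absent, in adult and 79.9 at E12.5. The epithelial alpha-catenin gene Ctnna1, named after its value was seen, had 9485 in adult and 7341 at E12.5.

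Intermediate filament genes were present on both arrays except Des, which was not present in adult. Of 6 genes 2 passed 2-fold towards adult, none towards E12.5, and 4 lay within it (median 0.65). Shares of all detected genes were 16.9% towards adult and 29.1% towards E12.5. With detected genes centred on 0, 4 passed towards adult, Krt7 (1.01) and Krt8 (1.05) being added. With no scaling 1 passed towards adult, and Des (-1.39) passed towards E12.5. Krt19 had 8606 in adult and 2411 at E12.5, 3.57-fold higher in adult, and Vim had 15851 in adult and 7591 at E12.5, 2.09-fold higher in adult. Vim lay within 2-fold with no scaling (0.51) and with its probe sets averaged (0.82). Krt8 had 6512 in adult and 4083 at E12.5, Krt7 5585 in adult and 3597 at E12.5, and Krt18 2667 in adult and 2486 at E12.5. Des, desmin of muscle and stellate cells, had 105, absent, in adult and 187 at E12.5. With this scaling none of the filament genes passed 2-fold towards E12.5, the direction of Dsp.

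**Figure D4:**
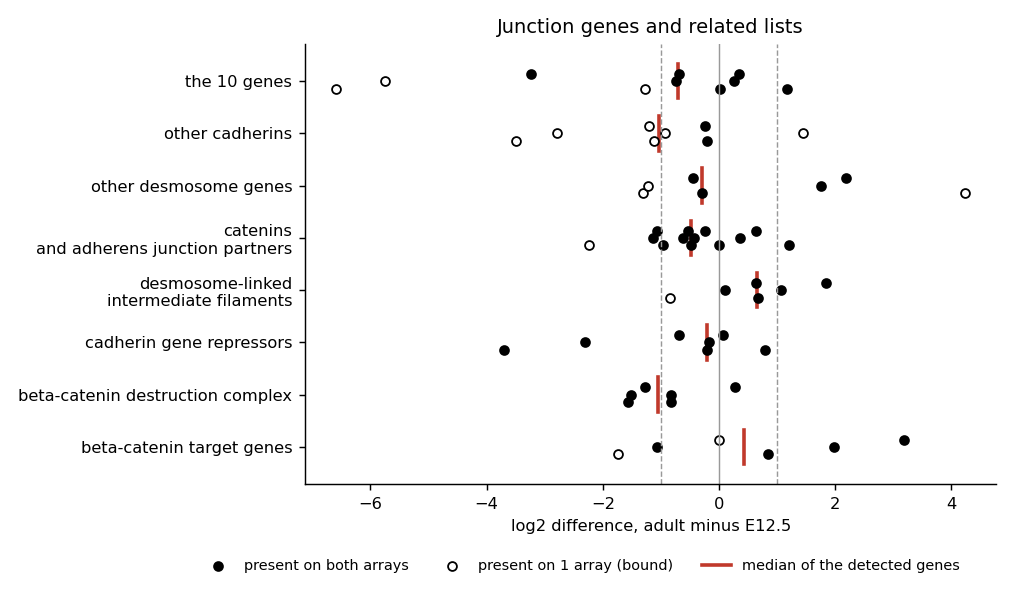
Log2 difference, adult minus E12.5, of each detected gene (circles) of the 10 genes and of 7 related lists (rows), with the median of each row in red and dashed lines at 2-fold. Filled circles are genes present on both arrays and open circles bounds for genes present on 1. The intermediate filament row lies mostly right of 0 and the destruction complex row mostly left of it.

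Beta-catenin is also held in check outside the junction, by a destruction complex. Of 6 genes of that complex none passed 2-fold towards adult, 3 did so towards E12.5 and 3 lay within it (median -1.05), beside 13.2% and 27.1% of all genes detected on both arrays. With no scaling 5 of the 6 passed towards E12.5, Axin1 (-1.39) and Gsk3b (-1.38) being added. The casein kinase Csnk1a1 had 1618 in adult and 4777 at E12.5, the scaffold Amer1 192 in adult and 546 at E12.5, and the ubiquitin ligase subunit Btrc 95.5 in adult and 230 at E12.5. Axin1 (451 in adult and 801 at E12.5), Gsk3b (705 in adult and 1249 at E12.5) and Apc (556 in adult and 462 at E12.5) lay within 2-fold. The call of Btrc was lost with detected genes centred on 0 (-0.89) and that of Csnk1a1 with its probe sets averaged (-0.84).

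Genes known as targets of beta-catenin divided, with 6 of 9 detected, 2 past 2-fold towards adult, 2 towards E12.5 and 2 within it (median 0.42). All detected genes had shares of 16.9% towards adult and 29.1% towards E12.5. The R-spondin receptor Lgr5 had 252 in adult and 27.8 at E12.5, 9.05-fold higher in adult, and the feedback inhibitor Nkd1 had 1228 in adult and 312 at E12.5, 3.94-fold higher in adult. Towards E12.5, the ubiquitin ligase Znrf3 had 141 in adult and 295 at E12.5, and the transcription factor Lef1 had 18.3, absent, in adult and 60.6 at E12.5. With detected genes centred on 0, Znrf3 lay within 2-fold (-0.69) and Axin2, within 2-fold here, passed towards adult (1.22). Ctnnb1 itself lay within 2-fold.

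The labelled cell type was checked on its markers: 10 of 10 mesothelial markers were present in adult and 9 at E12.5, with summed signals of 75613 in adult and 28796 at E12.5. Upk3b had 18571 in adult and 10114 at E12.5, Msln 11835 in adult and 48.5 at E12.5, and Upk1b 10080 in adult and 2543 at E12.5. Podxl, whose product was the antigen for sorting the E12.5 cells, had 1807 in adult and 6069 at E12.5, 3.36-fold lower in adult. Both sort antigens lay towards the array they were used for, so Msln and Podxl are no finding about stage. Of the 10 markers 6 passed 2-fold towards adult, 1 (Podxl) towards E12.5 and 3 lay within it, among them Wt1, a transcription factor of mesothelium, with 2228 in adult and 2152 at E12.5. Over all detected genes the shares were 16.9% towards adult and 29.1% towards E12.5, which is the background for the marker lists below as well. Podxl and Wt1 were named after their values were seen. Marker sums of other liver cells also differed between the arrays, some towards adult and others towards E12.5. In such bulk samples fewer cells of a type and less RNA per cell cannot be told apart.

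Hepatocytes and hepatoblasts, which carry desmosomes and both E- and N-cadherin, had 6 of their 8 detected markers present in adult and 8 at E12.5, with sums of 2635 in adult and 29055 at E12.5. All 8 passed 2-fold towards E12.5, with Afp at 17.2, absent, in adult and 9666 at E12.5, Alb at 1584 in adult and 7365 at E12.5, and Ttr as above. Stellate and fibroblast markers, of cells known to express Cdh2 and Cdh11, had 5 of 7 present in adult and 6 at E12.5, with sums of 1418 in adult and 7669 at E12.5. Of these 7, 5 passed 2-fold towards E12.5, 1 towards adult and 1 lay within it. Col1a1 had 501 in adult and 4503 at E12.5, Pdgfrb 485 in adult and 1199 at E12.5, and Pdgfra 125 in adult and 854 at E12.5. Lrat, the retinol-storing enzyme of stellate cells, named after its value was seen, lay the other way, with 39.9 in adult and 14.6, not present, at E12.5, at least 2.73-fold. The sums of both lists lay towards E12.5, as did Cdh2, Cdh3, Dsc2 and Dsp. Cdh1 (0.27), Cdh11 (0.02), Jup (0.34), Dsg2 (-0.74) and Ctnnb1 (-0.68) lay within 2-fold, and Pkp2 (1.18) lay towards adult. The part of these cells in the differences of the 10 genes was not tested.

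Cholangiocyte markers had 3 of 5 present in adult and 5 at E12.5, with sums of 14355 in adult and 7563 at E12.5. Of these 5, 1 passed 2-fold towards adult, 2 towards E12.5 and 2 lay within it. Krt19 and Krt7, which mesothelium shares, make up most of both sums. The other detected markers were brighter at E12.5. Prom1 had 74.4 in adult and 1323 at E12.5, and Sox9 had 29.5, absent, in adult and 152 at E12.5. The defining epithelial marker Epcam had 60.1, absent, in adult and 78.9 at E12.5. Endothelial markers had 6 of 6 detected ones present on each array, with sums of 13722 in adult and 1486 at E12.5. Of these 6, 3 passed 2-fold towards adult, none towards E12.5 and 3 lay within it. The 3 towards adult were Clec4g (6765 in adult and 91.9 at E12.5), Kdr (3857 in adult and 400 at E12.5) and Stab2 (2485 in adult and 356 at E12.5). Tek (137 in adult and 257 at E12.5) and Lyve1 (369 in adult and 253 at E12.5) lay within 2-fold. Pecam1 was present on neither array. The endothelial cadherin Cdh5 was nearly level, with 109 in adult and 128 at E12.5.

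Macrophage markers had 7 of 7 present in adult and 3 at E12.5, with sums of 20580 in adult and 592 at E12.5. Csf1r had 8606 in adult and 326 at E12.5, Cd5l 4835 in adult and 48.4, not present, at E12.5, and Clec4f 4054 in adult and 5.14, not present, at E12.5. Erythroid markers had none of 5 present in adult and 5 at E12.5, with sums of 79.4 in adult and 1414 at E12.5. Gata1 had 15.4 in adult and 571 at E12.5, Hbb-y 0.624 in adult and 322 at E12.5, and Epor 60.5 in adult and 208 at E12.5. The part of these cells in the adult and E12.5 signals of the junction genes was not tested.

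**Figure D5:**
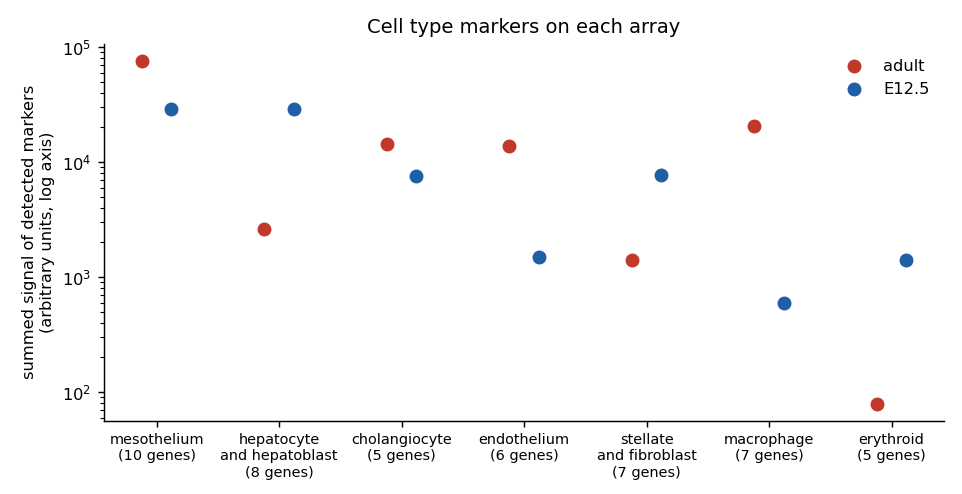
Summed signal of the detected markers of each cell type (horizontal axis) on the adult array (red, left) and the E12.5 array (blue, right), on a log axis in arbitrary units. Mesothelial, cholangiocyte, endothelial and macrophage sums are higher in adult, and hepatocyte, stellate and erythroid sums are higher at E12.5. Krt7 and Krt19, which mesothelium shares, make up most of the cholangiocyte sums.

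The balance of 3' and 5' signals of control transcripts also differed. The ratio of 3' to 5' control probe sets was 6.81 in adult and 2.07 at E12.5 for Gapdh, and 3.47 in adult and 1.93 at E12.5 for beta-actin. A higher ratio means that signal far from the 3' end was lower relative to the 3' end, and its part in the low adult signals of Cdh2, Dsc2 and Dsp was not tested.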

How the data were processed

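RNA of 1 adult Mesothelin-sorted and 1 E12.5 PCLP1-sorted liver cell sample was measured on 1 Affymetrix array each. Per the labels' protocols, 10 ng of total RNA was amplified in 2 cycles. The authors deposited a raw signal, an intensity on a linear scale, and a call (a column of other kind) per probe set; the submitters' processing notes name Affymetrix Expression Console, while the sources used here do not state the summarisation algorithm or its version. The authors also deposited a ratio, which equals the raw adult signal over 0.680 times the raw E12.5 signal, except for 78 probe sets at its floor of 0.01. The series value table holds the raw signals rounded.

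Of 45037 probe sets other than 64 controls, 34945 had 1 platform gene symbol (34741 matched to RefSeq by Entrez number), 932 several and 9160 none. The deposited table itself names 25 of the 26 member probe sets, and the platform annotation adds 1 of Cdh11. For each gene, of the probe sets present on at least 1 array, that with the highest log2 signal averaged over both arrays was taken. No pseudocount was used, and no test, p-value or interval was computed, since 1 array per group gives no spread between samples. The code was tested on simulated data. The simulated arrays shared their detection calls and held large changes only. Bounds for genes present on 1 array alone and changes near 2-fold were therefore not covered. Python 3.11.15, numpy 2.4.6, pandas 2.3.3 and scipy 1.17.1 were used. Alternatives changed the scaling, probe set choice, detection filter, pseudocount and value table. The members and lists were chosen with earlier results of these data known. Named by rule were all members, up to 4 detected genes with the largest difference per junction list (all of lists of up to 6) and the 3 brightest per cell type list. All other genes given, such as Dsc3, Ajuba, Ctnnd1, Ctnnd2, Vcl, Axin2, Epcam, Sox9, Cdh5 and Tek, were named outside this rule with their values known.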

Additional observations from a re-analysis of the deposited data

How the results depend on the processing

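The differences of Dsp, Dsc2 and Cdh2 stayed past 2-fold towards E12.5 under every alternative run. For Dsc2 and Cdh2 the direction was fixed by the detection filter in all runs but that without it. The count of members at least 2-fold higher in adult, 1 here, was 0 with no scaling, with detected probe sets averaged and with _s_at and _x_at probe sets left out, where Jup has no other probe set and drops out. The count at E12.5, 4 here, ranged from 3 to 6, and the members' median of -0.71 from -1.27 to -0.33. The 2 member probe sets higher in adult were 0 with no scaling, 4 with detected genes centred on 0 or trimmed means made equal, and 1 with a pseudocount of 16 or with _s_at and _x_at probe sets left out. The 8 at E12.5 were 5 with detected genes centred on 0. The share of all genes at least 2-fold higher at E12.5, 29.1% here, was 46.5% with no scaling and 19.4% with detected genes centred on 0. These scalings shifted the median difference of all detected genes by -0.56 and 0.34, quantile normalization by 0.24 and trimmed means by 0.31. The medians of the other desmosome genes and of the cadherin gene repressors turned positive with detected genes centred on 0 (0.09 and 0.17) and with trimmed means made equal (0.02 and 0.11), and the first also without the detection filter (0.23). Counts in the related lists moved as well. Towards E12.5, the other cadherins (4 here) ranged from 2 to 7, the other desmosome genes (2) from 0 to 3, the adherens junction partners (3) from 1 to 7, the intermediate filaments (0) from 0 to 1, the repressors (2) from 2 to 3, the destruction complex (3) from 2 to 5 and the beta-catenin targets (2) from 1 to 3. Towards adult, the other cadherins (1) ranged from 0 to 4, the other desmosome genes (3) from 3 to 4, the adherens junction partners (1) from 0 to 2, the intermediate filaments (2) from 1 to 4, the repressors (0) from 0 to 1 and the targets (2) from 2 to 3. Using only probe sets named in the deposited table, an alternative chosen after seeing the data, left the 10 genes' differences as they were. Differences of signals near background, such as those of Cdh3, Dsc1 and Dsc3, are limited by the detection calls. No paired analysis was possible because each group holds 1 array and the labels name no pairing of embryonic with adult animals.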
